A study of Rattus norvegicus with 24 samples.

Results

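The mature miRNAs rno-miR-25-3p, rno-miR-92a-3p, rno-miR-92b-3p and rno-miR-363-3p, written below without the species prefix, are the 4 members of 1 seed family followed here in rat serum, out of 753 miRNA names in the deposited tables. They were chosen by name, and the reads of all genomic loci of a name were summed. The sera came from male rats of the inbred Wistar Kyoto strain, and their small RNA was sequenced in 4 groups, 1 for each mix of diet and exposure. The rats began their diet at 4 weeks of age and kept it for 8 weeks; the normal groups ate the facility chow and the fish oil groups ate a custom diet with 6% fish oil by weight. They then breathed ozone at 0.8 ppm, or filtered air, for 4 h on each of 2 days in a row. The tables used here hold 23 libraries, 1 per rat: 6 in the normal air group, 6 in normal ozone, 6 in fish oil air and 5 in fish oil ozone, whose replicate 2 was not analysed here. The chow and the custom diet are separate products, so fish oil cannot be told apart from any other difference between them. The animal numbers of a group form a block of their own, so rats are not paired, and any batch along those blocks cannot be told apart from the groups. The rats lived 2 to a cage; which rats shared a cage is not given in the sources used here.

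A miRNA is a short RNA that guides a silencing complex to messenger RNAs, and it recognises them mainly through its seed, bases 2 to 8 from its 5′ end. MiRNAs with the same seed can bind many of the same messages. The members come from several transcripts: miR-92a from the miR-17-92 cluster, known for its role in cell growth, blood formation and vessels, and from the related miR-106a-363 cluster; miR-363 from that cluster too; miR-25 from the miR-106b-25 cluster in an intron of Mcm7; and miR-92b from a locus of its own. MiR-92a and miR-25 are plentiful in blood cells and in serum.

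The mature sequences are shown to make plain what the 4 members share and where they part; they come from RefSeq (GRCr8), are written 5′ to 3′ and carry the seed in capitals. All 4 names matched.
miR-25-3p: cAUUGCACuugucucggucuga
miR-92a-3p: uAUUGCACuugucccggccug
miR-92b-3p: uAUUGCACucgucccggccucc
miR-363-3p: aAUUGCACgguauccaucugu
The seed AUUGCAC was found in 5 of the 693 mature names with a sequence, or 0.722%. The fifth is miR-32-5p, which is no member here and had 26 counts over all 23 libraries. Counting positions from 1 at the 5′ end, miR-25-3p and miR-92a-3p are the same at 18 of 21 bases and differ by C1U, U14C and U18C. MiR-92a-3p and miR-92b-3p are the same at 19 of 21 bases and differ by U10C and G21C. MiR-363-3p shares 10 of 21 bases with miR-92a-3p and 8 of 21 with miR-25-3p, so outside the seed it is the most distant member.

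MiR-92a-3p is made from a pair of precursors, and these are printed because their mature parts, in capitals, are identical.
Mir92a1: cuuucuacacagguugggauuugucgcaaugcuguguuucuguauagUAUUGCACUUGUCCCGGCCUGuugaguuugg
Mir92a2: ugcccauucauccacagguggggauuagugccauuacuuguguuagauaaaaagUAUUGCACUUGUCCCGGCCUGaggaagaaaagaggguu
The base after the mature part is U in Mir92a1 and A in Mir92a2. The deposited table nevertheless gives miR-92a-3p separate counts at 2 loci of the rn5 build, 18041 on chromosome 15 (103641656 to 103641677) and 1228 on chromosome X (140167113 to 140167134). How reads that match both loci were assigned is not given in the sources used here, so only the sum is compared between groups. The share listed at X was 6.68% of the summed counts for normal diet in air, 5.83% for normal diet in ozone, 7.78% for fish oil in air and 5.17% for fish oil in ozone. MiR-25-3p lies on chromosome 12 (21364981 to 21365003), miR-92b-3p on chromosome 2 (207955690 to 207955712) and miR-363-3p on chromosome X (140166956 to 140166977), 157 bp from the X copy of miR-92a-3p. The files place each of these positions in a mature miRNA without stating if the first base of a chromosome is 0 or 1.

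Each library held 23276 to 94264 miRNA counts, and the members differed widely in how many of them they had. Levels are CPM, counts scaled to the depth of the library, adjusted with TMM factors (a trimmed mean of log ratios between libraries), a method that assumes that most miRNAs do not differ. The floor, the least count told apart from 0, was set at 3 and equals 31.8 to 129 CPM before that scaling; such floors cover counting error only, since PCR reads without molecular identifiers are not independent molecules. Over all libraries miR-25-3p had 28110 counts and was the ninth most abundant name, with 449 to 2698 counts per library. MiR-92a-3p had 19269 counts (78 to 2176 per library), miR-92b-3p had 2554 (15 to 330) and miR-363-3p had 330 (0 to 45). All 4 passed the low-count filter of edgeR, as did 136 names in all. In a serum sample, fewer cells of a type that releases a miRNA and less of it released per cell cannot be told apart.

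Relative to the other serum miRNAs, rats on fish oil had less miR-92a-3p, miR-92b-3p and miR-363-3p than rats on the normal diet, while miR-25-3p did not pass the test. Averaged over air and ozone, miR-92a-3p and miR-363-3p both stood at 0.47 times and miR-92b-3p at 0.51 times their normal diet level. In this average 3 of the 4 members were lower past the threshold (edgeR quasi-likelihood F test, Benjamini-Hochberg over 136 miRNAs, adjusted p below 0.05). Of all 136 miRNAs, 16.9% were lower and 36.8% differed in either direction: 27 were higher and 23 lower, against 29 and 13 when scaled to the plain miRNA total and 1 and 70 when scaled to the read total that the authors' RPM values imply. The median log2 fold change was −1.03 over the members and +0.06 over all 136. Ozone moved no member past the threshold on either diet.

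MiR-92a-3p, the main product of its cluster in blood, had 11849 to 29188 CPM in normal air, with a median of 19399 (mean 19035 ± 6227, SD, n = 6). In normal ozone it had 12235 to 34643 CPM, with a median of 19280 (21470 ± 8089, n = 6). In fish oil air it had 5081 to 15467 CPM, with a median of 12860 (11338 ± 4175, n = 6). The 5 libraries of fish oil in ozone had 7572, 2564, 9589, 7273 and 12688 CPM, in the order of replicates 1, 3, 4, 5 and 6 (7937 ± 3699, n = 5). The fish oil groups lay lower but overlapped with the normal diet groups, and the lowest value of all 23 was that of fish oil ozone 3, the third replicate of that group. Averaged over exposures miR-92a-3p fell by 1.09 on the log2 scale with fish oil (edgeR adjusted p = 0.000656, SE 0.23), and 11 of 11 fish oil libraries lay below the mean of their normal diet group. In ozone it fell by 1.43 (edgeR adjusted p = 0.00380, SE 0.33; 5 of 5 libraries below the normal diet mean). In air the log2 fold change was −0.75 (edgeR adjusted p = 0.124, SE 0.31; 6 of 6 libraries below the normal diet mean), which did not pass. By rank of mean level, miR-92a-3p was the 11th and 10th most abundant name in normal air and normal ozone, and the 18th and 23rd on fish oil.

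MiR-92b-3p, the product of a single-gene locus, ranged from 1522 to 3265 CPM in normal air, with a median of 2279 (2328 ± 705, SD, n = 6). In ozone on that diet it ranged from 1601 to 5254 CPM, with a median of 2749 (3036 ± 1372, n = 6). In fish oil air it ranged from 464 to 2789 CPM, with a median of 1372 (1493 ± 782, n = 6). Fish oil in ozone gave 1170, 493, 1823, 972 and 1669 CPM for replicates 1, 3, 4, 5 and 6 (1226 ± 538, n = 5). The groups again overlapped, with the lowest values in fish oil air 3 and fish oil ozone 3, which had 17 and 15 counts. With fish oil averaged over exposures miR-92b-3p fell by 0.97 (edgeR adjusted p = 0.00294, SE 0.25; 10 of 11 libraries below the normal diet mean). In ozone it fell by 1.29 (edgeR adjusted p = 0.0108, SE 0.37; 5 of 5 libraries below the normal diet mean), a call that ended without fish oil ozone 3 (−1.11, edgeR adjusted p = 0.0565). In air the log2 fold change was −0.65 (edgeR adjusted p = 0.186, SE 0.34; 5 of 6 libraries below the normal diet mean).

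MiR-363-3p, which shares the family seed but little else, was close to the floor in several libraries. It had 161 to 586 CPM in normal air, with a median of 359.8 (364 ± 145, SD, n = 6), and 136 to 810 CPM in normal ozone, with a median of 230 (316 ± 248, n = 6). In fish oil air it had 109 to 335 CPM, with a median of 199 (218 ± 99.7, n = 6). Replicates 1, 3, 4, 5 and 6 of fish oil in ozone had 1, 0, 14, 2 and 3 counts, and 1 of these 5 libraries was above the floor of 3. The count of 0 in fish oil ozone 3 allows a level of up to 110 CPM of its miRNA counts. Averaged over exposures miR-363-3p fell by 1.09 with fish oil (edgeR adjusted p = 0.0216, SE 0.38; 10 of 11 libraries below the normal diet mean). This call ended without normal ozone 6, the library with the highest level (−0.82, edgeR adjusted p = 0.0674), and without fish oil ozone 4 the miRNA fell by 1.68. In ozone the log2 fold change of −1.46 (SE 0.58, edgeR adjusted p = 0.0605) did not pass. It was −0.92 without normal ozone 6 (edgeR adjusted p = 0.223), −2.62 without fish oil ozone 4 (edgeR adjusted p = 0.00867) and −1.70 without normal ozone 4 (edgeR adjusted p = 0.0383). Of 10 other settings, 5 called it in ozone, among them DESeq2, a further count test (−1.52, DESeq2 adjusted p = 0.0407), and 5 did not (edgeR adjusted p = 0.0684 to 0.126). In air the log2 fold change was −0.71 (edgeR adjusted p = 0.325, SE 0.48; 6 of 6 libraries below the normal diet mean).

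MiR-25-3p, the most abundant member, had 17152 to 32336 CPM in normal air, with a median of 23315 (23630 ± 5401, SD, n = 6). In ozone on the normal diet it had 24216 to 31189 CPM, with a median of 25026 (25938 ± 2639, n = 6). In fish oil air it had 17970 to 27746 CPM, with a median of 26161 (24045 ± 4500, n = 6). In fish oil with ozone the values were 17483, 14761, 25682, 31038 and 18364 CPM for replicates 1, 3, 4, 5 and 6 (21466 ± 6705, n = 5). The groups overlapped, and the 6 libraries of normal ozone, all above the normal air mean, lay closest together. Averaged over exposures its log2 fold change with fish oil was −0.12 (SE 0.15, edgeR adjusted p = 0.541), and 6 of 11 fish oil libraries were lower. It was +0.02 in air (SE 0.20, edgeR adjusted p = 0.938) and −0.27 in ozone (SE 0.22, edgeR adjusted p = 0.364). By rank it stayed between the 8th and the 10th most abundant name in all 4 groups.

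**Figure D1:**
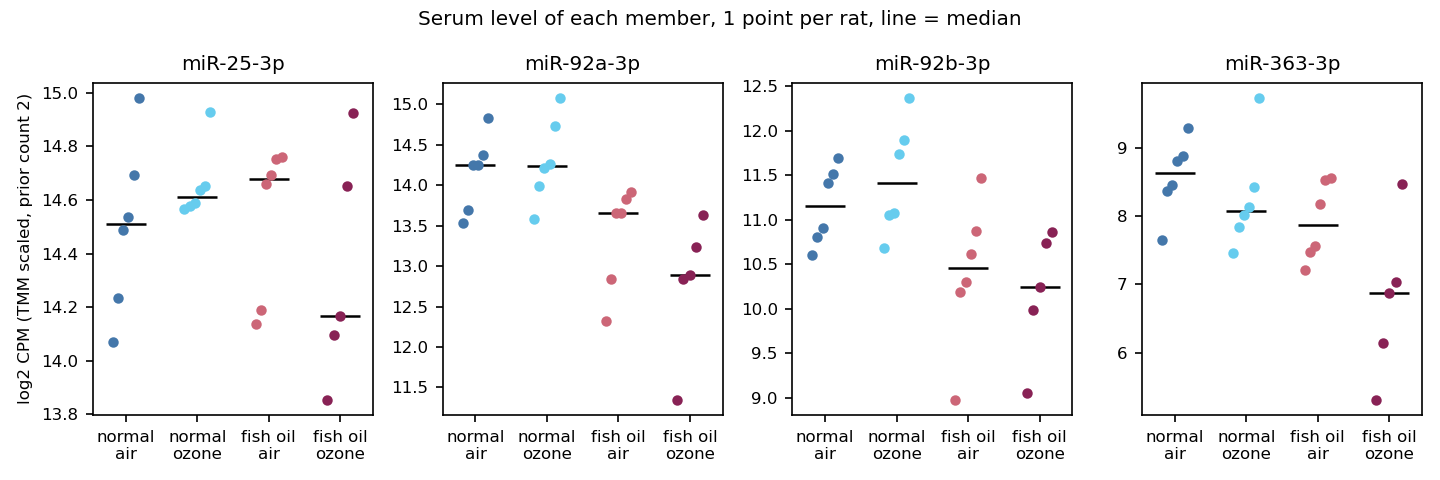
Level of each member in each of the 23 rats, as log2 CPM after TMM scaling with a prior count of 2; 1 point per library, a line at each group's median, and a separate vertical scale for each member. The points of miR-92a-3p, miR-92b-3p and miR-363-3p lie lower in the fish oil groups, with overlap, and those of miR-25-3p overlap between all 4 groups, with the narrowest range in normal ozone.

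Counted against the background of each exposure, 2 of the 4 members were lower with fish oil in ozone, where 10.3% of all 136 miRNAs were lower and 22.8% differed in either direction. In air 0 of 4 members passed, where 5.88% of all miRNAs did. The fish oil comparison in air held 39 of 136 miRNAs at an unadjusted p below 0.05, and miR-92a-3p was among them. DESeq2 also called 0 members in air, and edgeR without the low-count filter called 1, miR-92a-3p (−0.86, edgeR adjusted p = 0.0284). With the read total implied by the authors' RPM as library size, edgeR called 2 in air, miR-92a-3p (−1.61, edgeR adjusted p = 0.00323) and miR-92b-3p (−1.78, edgeR adjusted p = 0.00729), and limma on the RPM called the same 2. In air the implied total gave 37 of all 136 miRNAs as lower and 1 as higher, and limma on the RPM 31 and 0. DESeq2 gave 8 of 136 as lower and 7 as higher, and edgeR without the filter 8 and 4 of 440. The fish oil difference was not shown to differ between air and ozone: the interaction was −0.69 for miR-92a-3p (SE 0.45), −0.64 for miR-92b-3p (SE 0.49), −0.75 for miR-363-3p (SE 0.75) and −0.30 for miR-25-3p (SE 0.30), each with an edgeR adjusted p of 0.916. That of miR-363-3p was −0.21 without normal ozone 6 and −1.88 without fish oil ozone 4. Of all 136 miRNAs 0% passed in the interaction (edgeR), with 6 at an unadjusted p below 0.05 and 0 called by DESeq2.

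The summed counts of the 4 members give the level of this seed from these names relative to the other serum miRNAs, not an amount per volume of serum. The sum was 45357 ± 11805 CPM in normal air and 50760 ± 11275 in ozone (SD, n = 6 each), against 37094 ± 9136 in fish oil air (n = 6) and 30732 ± 8806 in ozone (n = 5). The fold changes of the sum come from a separate edgeR fit, with 1 row in place of the 4 members and TMM factors computed anew. They therefore need not equal the ratios of these CPM means, which use the TMM factors of the main fit. With fish oil averaged over exposures the sum fell by 0.59 (SE 0.16, edgeR adjusted p = 0.00538), or to 0.663 times. In ozone it fell by 0.80 (SE 0.24, edgeR adjusted p = 0.0149; 0.0508 without fish oil ozone 3), and in air the log2 fold change was −0.38 (SE 0.22, edgeR adjusted p = 0.236). As a plain share of the miRNA counts, with no TMM factors, the family made up 4.24 ± 1.06% and 4.98 ± 0.729% in normal air and normal ozone, and 4.01 ± 1.03% and 3.05 ± 0.843% on fish oil. The 5 fish oil ozone libraries held 1.98% to 4.04% and the 6 normal ozone libraries 4.15% to 6.32%, with no overlap. With fish oil in ozone that share fell by 1.92 points (exact permutation test, two-sided, p = 0.00433, adjusted over 4 comparisons p = 0.0173), the smallest p that 5 against 6 allow. In air the difference of −0.224 points did not pass (exact permutation test, adjusted p = 0.703). As a share of the read total that the authors' RPM values imply, it was −0.0319 points in air and −0.0513 in ozone (exact permutation test, adjusted p = 0.0519 and 0.0173). Without the 5 most abundant miRNAs in the total it was −1.01 and −3.64 points (exact permutation test, adjusted p = 0.400 and 0.0346).

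Within the family, the balance moved from miR-92a-3p towards miR-25-3p. MiR-25-3p held 52.5 ± 2.72% of the family's counts in normal air and 52.3 ± 7.82% in ozone, against 65.8 ± 5.52% and 70.6 ± 10.6% on fish oil. MiR-92a-3p held 41.4 ± 3.44% and 41.2 ± 7.05% on the normal diet, against 29.6 ± 4.90% and 25.2 ± 9.44% on fish oil. In air the groups did not overlap for either: the 6 normal diet libraries had 49.5% to 56.0% miR-25-3p, and the 6 fish oil libraries had 60.2% to 76.1%. In ozone the groups overlapped for both, with 43.7% to 63.7% miR-25-3p on the normal diet and 56.0% to 82.8% on fish oil. These shares make up most of 1 sum, so when 1 rises the other falls. MiR-92b-3p and miR-363-3p together stayed a small part, with mean shares of 3.88% to 5.77% and of 0.287% to 0.854%.

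**Figure D2:**
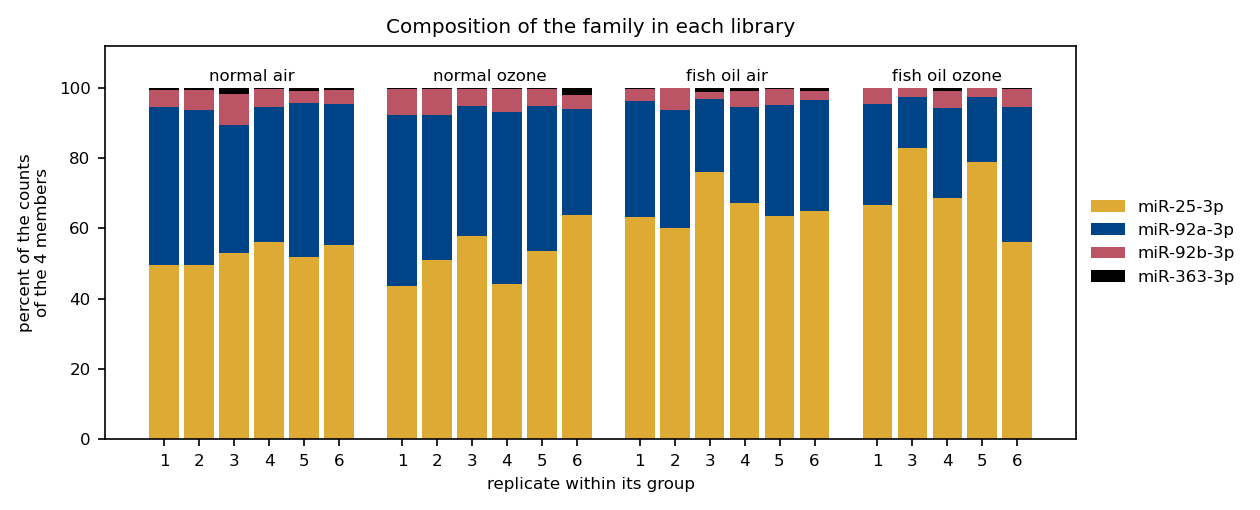
Share of each member in the summed counts of the 4 members, 1 stacked bar per library, in percent, grouped by diet and exposure. The part of miR-25-3p lies between 49.5% and 56.0% in the 6 libraries of normal diet in air and between 60.2% and 76.1% in the 6 of fish oil in air. In ozone the ranges overlap, at 43.7% to 63.7% for normal diet and 56.0% to 82.8% for fish oil.

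A ratio of 2 members within a library depends on no library scaling and tests the difference between them directly. There were 12 such comparisons, 3 ratios in 4 pairs of groups, with 0.5 added to each count and p-values adjusted over the 12. The ratio of miR-92a-3p to miR-25-3p lay between 0.686 and 0.903 in normal air and between 0.273 and 0.558 in fish oil air. Every fish oil library in air was below every normal diet library in air. The log2 difference was −0.82, a geometric mean of 0.446 against 0.787 (exact permutation test, two-sided, p = 0.00216, the smallest that 6 against 6 allow; adjusted p = 0.0260). With any 1 library left out the groups still gave the smallest p that 5 against 6 allow, which after adjustment is 0.0519 and cannot pass. In normal ozone the ratio lay between 0.476 and 1.11. In fish oil ozone it was 0.434, 0.175, 0.374, 0.235 and 0.691 in replicates 1, 3, 4, 5 and 6. Fish oil ozone 6 alone of the 5 lay inside the range of the normal diet, and the log2 difference of −1.20 did not pass (exact permutation p = 0.0130, adjusted p = 0.0779).

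Averaged over exposures, with the diet permuted within each exposure, the ratio of miR-92a-3p to miR-25-3p fell by 1.01 on the log2 scale with fish oil, or to 0.496 times (exact permutation test, p = 4.69e-05, adjusted over the 3 ratios p = 0.000141). The ratio of miR-363-3p to miR-25-3p fell by 1.13, or to 0.457 times (exact permutation test, p = 0.00811, adjusted p = 0.0122). MiR-92b-3p and miR-92a-3p, the closest pair in sequence, did not separate: their ratio had a log2 difference of +0.12 (exact permutation test, p = 0.467, adjusted p = 0.467), with geometric means of 0.123 and 0.138 on the normal diet and 0.125 and 0.160 on fish oil. These 3 averaged tests were added after the data had been seen. Of the other comparisons among the 12, 0 passed: miR-363-3p to miR-25-3p had a log2 difference of −0.74 in air and −1.52 in ozone (exact permutation, adjusted p = 0.289 and 0.190). At the low counts of miR-363-3p this ratio depends on the 0.5 added to each count. With 1 added instead it had −0.68 in air, −1.19 in ozone and −0.93 averaged over exposures (exact permutation, adjusted p = 0.260, 0.242 and 0.0179).

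**Figure D3:**
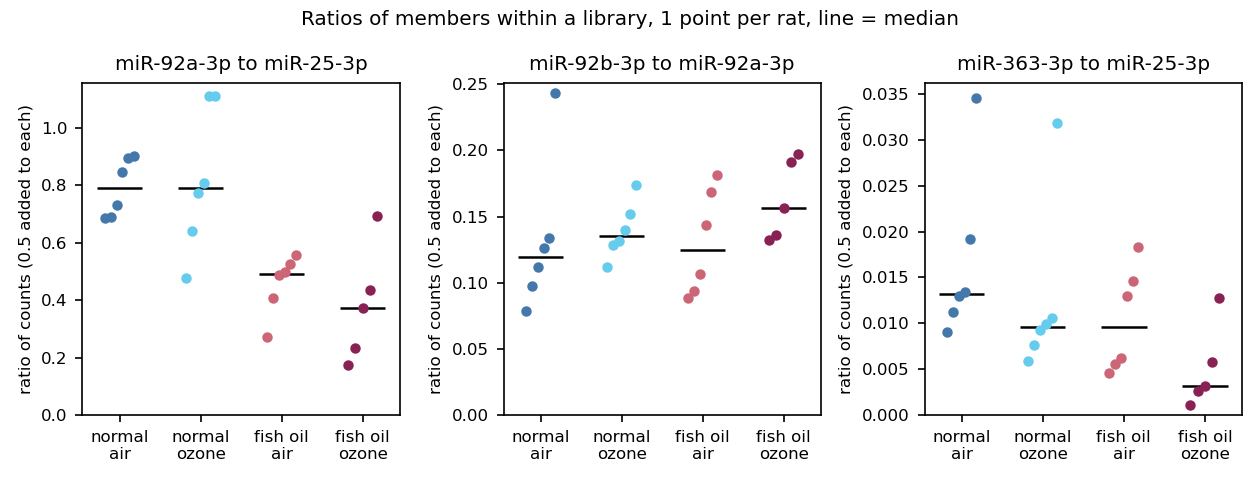
Ratio of the counts of 2 members within each library, with 0.5 added to each count, on a linear axis from 0; 1 point per rat and a line at each group's median. The ratio of miR-92a-3p to miR-25-3p is 0.686 to 0.903 for normal diet in air and 0.273 to 0.558 for fish oil in air, and that of miR-92b-3p to miR-92a-3p covers overlapping ranges in all 4 groups.

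Ozone gave no difference past the threshold for any member. On the normal diet the log2 fold changes with ozone were +0.13 for miR-25-3p (SE 0.20), +0.17 for miR-92a-3p (SE 0.31), +0.38 for miR-92b-3p (SE 0.33) and −0.22 for miR-363-3p (SE 0.46), each with an edgeR adjusted p of 0.939. On fish oil they were −0.16 (SE 0.22), −0.51 (SE 0.33), −0.26 (SE 0.37) and −0.97 (SE 0.60) in the same order, with edgeR adjusted p-values of 0.667 to 0.889. Without fish oil ozone 4 the value of miR-363-3p was −2.12 (edgeR adjusted p = 0.699), and without fish oil ozone 3 that of miR-92a-3p was −0.28 (edgeR adjusted p = 0.877). Averaged over diets they were −0.01, −0.17, +0.06 and −0.60. Of all 136 miRNAs, edgeR called 0% on the normal diet, 0% on fish oil and 0.735% in the average over diets, with 4, 10 and 4 miRNAs at an unadjusted p below 0.05; DESeq2 called 1, 0 and 1. For miR-92a-3p to miR-25-3p the normal diet ratios had geometric means of 0.785 with ozone and 0.787 without, a gap far under the spread between rats (log2 difference −0.00, exact permutation, adjusted p = 0.985), and on fish oil the log2 difference was −0.39 (exact permutation, adjusted p = 0.404). The fish oil comparison in air and the ozone comparison on the normal diet share the normal diet air libraries.

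The genomic neighbours of the members were read from lists of each cluster. In the miR-17-92 cluster, which spans 741 bp up to miR-92a-3p on chromosome 15, 4 of 10 other names were tested. In the fish oil average 1 of these 4 was lower, against 16.9% of all 136 miRNAs, and their median log2 fold change was −0.33. A list of 4 names is too short to tell its share from that background. MiR-17-5p, which gives its seed family its name and limits cell cycle and death genes, fell by 0.68 (edgeR adjusted p = 0.00725, SE 0.20; 0.0742 with the plain miRNA total as library size). Its fish oil levels of 2694 ± 745 CPM in air and 1933 ± 774 CPM in ozone (SD, n = 6 and 5) stood against 3768 ± 838 and 3548 ± 1467 CPM for the normal diet (n = 6 each). It also fell in ozone, by 0.87 (SE 0.29, edgeR adjusted p = 0.0261), a call lost on leaving out fish oil ozone 1, 3, 4 or 5, or else normal ozone 3 or 5 (highest edgeR adjusted p = 0.117). MiR-20a-5p, of the same seed as miR-17-5p, had −0.44 (edgeR adjusted p = 0.0887), and the miR-19 pair had +0.01 for miR-19a-3p and −0.22 for miR-19b-3p. MiR-17-5p and miR-19b-3p also have loci on X, so their values mix both clusters.

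In the miR-106b-25 cluster, within 451 bp of miR-25-3p, 3 of 4 other names were tested and 0 passed: miR-93-5p had −0.09 (SE 0.16), miR-106b-3p +0.07 (SE 0.21) and miR-106b-5p +0.09 (SE 0.35) with fish oil averaged over exposures. MiR-93-5p, the most abundant of them, had 5872 ± 1095, 5406 ± 1643, 5952 ± 738 and 4747 ± 1725 CPM from normal diet in air to fish oil in ozone. Of the miR-106a-363 cluster, 0 of the 3 other names in the tables reached the filter, the highest being miR-20b-5p with 57 counts in all; miR-106a-5p and miR-18b-5p were not analysed here. The opposite strands of the members were almost unseen: miR-25-5p had 77 counts over 23 libraries, miR-92a-1-5p 14, miR-92b-5p 3, and miR-92a-2-5p and miR-363-5p 0.

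**Figure D4:**
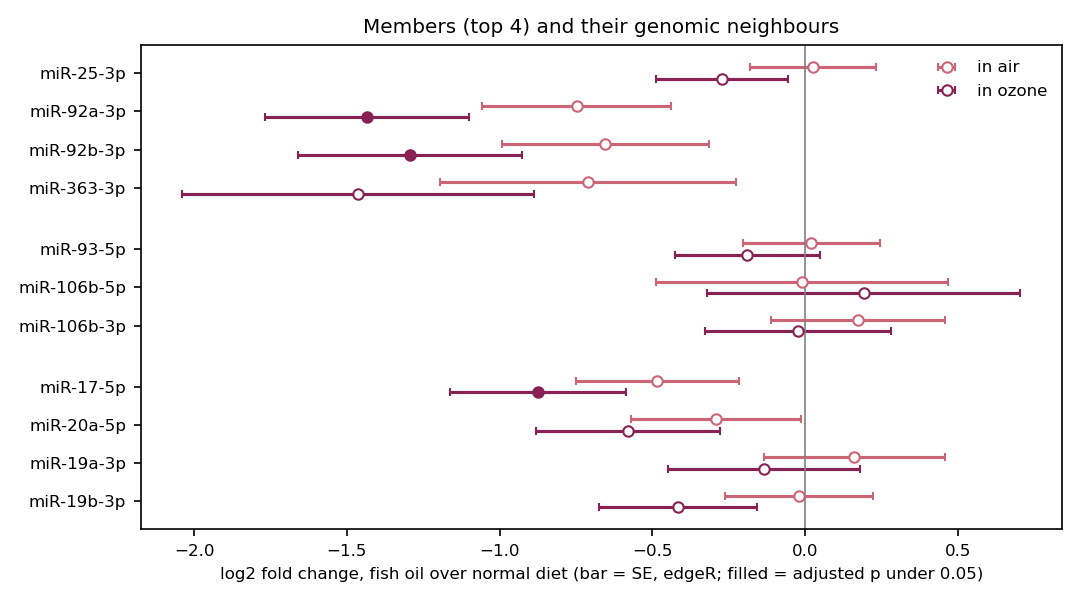
Log2 fold change of fish oil over normal diet in air and in ozone for the 4 members (top), 3 tested neighbours of miR-25-3p (middle) and 4 tested neighbours of miR-92a-3p (bottom); bars are the SE from edgeR and filled points have an adjusted p below 0.05. The filled points are miR-92a-3p at −1.43, miR-92b-3p at −1.29 and miR-17-5p at −0.87, all in ozone.

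Across the 23 libraries the members differed in which miRNAs they resembled, measured as Pearson's r of log2 CPM with the 132 other tested names. These libraries share depth and group structure, so the values are a description. MiR-92a-3p was most like miR-328a-3p (r = 0.952), miR-191a-5p (0.896), miR-423-5p (0.879), miR-130b-3p (0.863) and miR-423-3p (0.847). MiR-92b-3p was most like miR-328a-3p (0.849), miR-151-3p (0.845), miR-98-5p (0.818), miR-146b-5p (0.793) and miR-423-5p (0.792). MiR-25-3p was most like let-7d-5p (0.789), let-7i-5p (0.750), miR-1839-5p (0.664), miR-423-3p (0.654) and its cluster partner miR-93-5p (0.625). MiR-363-3p was most like miR-425-5p (0.728), miR-128-3p (0.645), miR-872-5p (0.613), miR-191a-5p (0.591) and miR-223-3p (0.563). It had only 0 to 45 counts per library, so each r of miR-363-3p carries more counting error than those of the other members. Among the members the highest r was 0.888, between miR-92a-3p and miR-92b-3p, and the lowest was 0.341, between miR-25-3p and miR-363-3p.

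With the group means taken away, r was 0.818 for miR-92a-3p with miR-92b-3p and 0.680 for miR-92a-3p with miR-25-3p. The nearest names to miR-92a-3p were then miR-328a-3p (0.913), miR-423-5p (0.899), miR-423-3p (0.870), miR-191a-5p (0.800) and miR-130b-3p (0.797). Those of miR-92b-3p were miR-98-5p (0.785), miR-423-5p (0.763), miR-328a-3p (0.757), miR-423-3p (0.729) and miR-151-3p (0.719). Those of miR-25-3p were let-7d-5p (0.757), let-7i-5p (0.734), miR-423-3p (0.665), miR-93-5p (0.651) and miR-425-5p (0.636). MiR-363-3p, at its low counts, then had r = 0.079 with miR-92a-3p and 0.030 with miR-92b-3p. Its nearest names were miR-23a-3p (0.654), miR-425-5p (0.618), miR-23b-3p (0.583), miR-150-5p (0.529) and miR-126a-3p (0.517).

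Markers of blood cells that can leak RNA into serum were read beside these values. The 5 platelet markers summed to 222757 to 379681 CPM in normal air and 239163 to 382302 in ozone, against 94167 to 193809 and 96304 to 152496 on fish oil, so this sum was lower together with miR-92a-3p. Of the 5, miR-191a-5p and miR-223-3p were lower and miR-126a-3p was higher in the fish oil average (edgeR), the last with a log2 fold change of −0.00 when scaled to the read total that the authors' RPM values imply. The sum is mostly miR-191a-5p, plentiful in blood cells and platelets, with 218896 counts and a log2 fold change of −1.54, and with TMM scaling the rest went both ways: miR-126a-3p had +1.06, miR-21-5p +0.31 (edgeR adjusted p = 0.103), miR-24-3p −0.25 (0.151) and miR-223-3p −0.80. The 4 erythrocyte markers in the tables summed to 12509 to 19693, 10826 to 20424, 15311 to 23028 and 10712 to 24076 CPM from normal diet in air to fish oil in ozone. That sum is mostly miR-16-5p, with 19338 counts against 677 for miR-451-5p, 260 for miR-144-3p and 238 for miR-144-5p. In the fish oil average miR-16-5p had +0.06 (edgeR adjusted p = 0.778) and miR-451-5p +0.58 (edgeR adjusted p = 0.208). In that average miR-144-3p (+0.98) and miR-144-5p (+1.32) were higher, neither of them past the threshold when scaled to the implied read total (edgeR adjusted p = 0.900 and 0.238). The 5 leukocyte markers summed to 3147 to 8109, 4021 to 9968, 3051 to 7703 and 2678 to 9074 CPM, and of the 4 tested miR-223-3p, on both lists, was lower; the leukocyte-defining miR-142-3p had 0 to 7 counts. MiR-122-5p, the main miRNA of liver, had 4489 to 74004, 6260 to 40642, 3315 to 13822 and 10422 to 52547 CPM, and a log2 fold change of −1.02 in the fish oil average (edgeR adjusted p = 0.0665). In air it fell by 2.06 with fish oil (edgeR adjusted p = 0.0472), a call that ended on leaving out replicate 2, 4, 5 or 6 of the fish oil air group, replicate 2, 5 or 6 of its normal diet counterpart or normal ozone 6 (edgeR adjusted p up to 0.103), with no low-count filter (0.0778), in voom (0.0821) and with only the compared groups (0.0951), and in ozone it had +0.01 (edgeR adjusted p = 0.984); the interaction did not pass (+2.07, edgeR adjusted p = 0.531). The call of miR-144-3p was lost in 11 of the 23 fits that left out 1 library (highest edgeR adjusted p = 0.218, without fish oil ozone 3), and that of miR-223-3p without normal air 3, normal ozone 6 or fish oil ozone 5 (highest 0.0829). The erythrocyte index, the log2 ratio of miR-451-5p to miR-23a-3p that rises when red cells break, was −2.14 ± 0.56, −2.79 ± 1.07, −1.88 ± 0.64 and −2.19 ± 1.29 by group. The index rests on miR-451-5p, which had 3 to 75 counts per library. Over the 23 libraries its r was 0.07 with miR-25-3p, −0.35 with miR-92a-3p, −0.51 with miR-92b-3p and −0.17 with miR-363-3p. With that index as a covariate the same number of members, 3 of 4, was lower in the fish oil average (median −0.93). In that fit 25 of all 136 miRNAs were lower and 25 were higher. The part of red cells, platelets, leukocytes and liver in these results was not tested.

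How large the fish oil difference is depends on the scaling. A change of scaling shifts all miRNAs of a library alike. The gap between miR-25-3p and the others could therefore hardly move, and its steadiness is no test. The authors' RPM values imply a read total of 2243916 to 7729948 reads per library, of which miRNA counts were 1.36 ± 0.563% in normal air, 1.56 ± 0.578% in normal ozone, 0.660 ± 0.181% in fish oil air and 0.826 ± 0.335% in fish oil ozone. Scaled to that total, all 136 miRNAs had a median of −0.87 in the fish oil average, where TMM gave +0.06, and 51.5% of them were lower. All 4 members were then lower: miR-25-3p fell by 1.03 (edgeR adjusted p = 0.00246), miR-92a-3p fell by 1.98, miR-92b-3p fell by 1.92 and miR-363-3p fell by 2.10. Relative to the median miR-25-3p lay 0.16 lower with this total and 0.19 lower with TMM, and miR-92a-3p lay 0.95 and 0.97 below miR-25-3p. With the plain miRNA total the median of all was +0.17, and miR-363-3p no longer passed (−0.99, edgeR adjusted p = 0.0598).

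**Figure D5:**
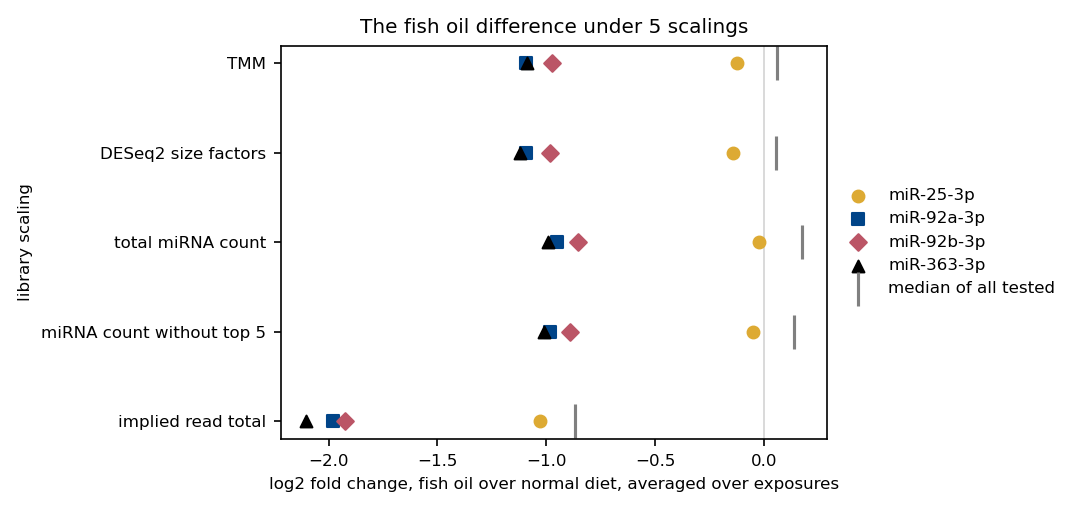
Log2 fold change of fish oil over normal diet, averaged over exposures, for each member under 5 library scalings, with a grey tick at the median of the 136 tested miRNAs. With the implied read total all members and the median move to lower values together. A change of scaling shifts all miRNAs of a library alike, so the distances between the points are nearly fixed in advance.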

How the data were processed

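Serum small RNA was measured in 23 libraries of 4 groups. The authors deposited a table of expected counts per mature miRNA locus, taken to be estimates since fractions occur at 50 of 832 loci (0 of the members' loci); loci of a name were summed and rounded. The RPM values the authors deposited equal these counts over 1 read total per library plus an offset of 0.0001, to within 0.0341 reads; that implied read total is not stated in the files. The rn5 build, Bowtie 1.0.0, bcl2fastq and Partek were used, per the submitters' processing notes; the sources used here give no order, filters or annotation.

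Names that passed filterByExpr by group (minimum count 10, minimum total 15; 136 of 753 names, with 99.3% of counts) were fitted in edgeR 4.0.16 (R 4.3.3): TMM factors, 1 mean per group, robust quasi-likelihood F test, two-sided, Benjamini-Hochberg over these names, threshold 0.05. Rose, fell and changed refer to results past it, and SEs come from the same fits. Shares and ratios were tested by exact permutation over libraries in SciPy 1.17.1. Alternatives used DESeq2 1.42.0, limma 3.58.1 (voom, and log2 of RPM with a pseudocount of 0.0647), other library sizes, no filter, the highest locus only, an erythrocyte index covariate, only the compared groups, and each library left out. On the log2 RPM scale the values of miRNAs with few counts depend on that pseudocount. On simulated counts of 136 miRNAs the fish oil average called 42% of 1.5-fold, 82.5% of 2-fold and 100% of 4-fold changes, and 0.519% of unchanged miRNAs; the comparison in air called 17.5%, 56.5% and 95% of those fold sizes.

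The members and lists (the miR-17-92, miR-106b-25 and miR-106a-363 clusters, opposite strands, and erythrocyte, platelet, leukocyte and liver markers) were chosen with earlier results of these data known. Named are all members, list names past the threshold and the 5 names most like each member; other list names are given by value. MiR-486 was not analysed here. At most 10.6% of names had equal counts in a pair of libraries. The p-values measure the spread between single rats.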

Additional observations from a re-analysis of the deposited data

Results flagged for a closer look

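Of 32 sets of values examined, each 1 measure in 1 group, 2 held a library that stood apart from the rest of its group; chance gives about 1 in 20. MiR-25-3p in normal ozone 1 was the highest of its 6 libraries, with 14.93 log2 CPM against 14.65 for the next. The log2 ratio of miR-363-3p to miR-25-3p in normal ozone 6 was −4.97, against −6.56 for the next of the 6, and this is the library without which the fall of miR-363-3p in the fish oil average no longer passed.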

How the results depend on the processing

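The falls of miR-92a-3p and miR-92b-3p in the fish oil average passed under all 9 alternatives and without any 1 library, and so did the fall of miR-92a-3p with fish oil in ozone under 10. Scaled to the plain miRNA total, the family sum in the fish oil average no longer passed (−0.39, edgeR adjusted p = 0.0541). The family sum with fish oil in air passed when scaled to the implied read total (−1.15) and in limma on RPM (−1.09). MiR-25-3p with fish oil in air turned to −0.82 with the implied read total, −0.078 with no filter and −0.77 in limma on RPM. In limma on RPM the fish oil average called all 4 members lower, where 69 of all 136 miRNAs were lower and 1 was higher. Values near 0 that missed the threshold also changed sign. For ozone averaged over diets, miR-25-3p became 0.21 with the implied read total, 0.0065 with no filter, 0.018 with the erythrocyte index and 0.21 in limma on RPM; miR-92a-3p became 0.010 in limma on RPM, miR-92b-3p −0.14 with the erythrocyte index, and the sum 0.14 with the implied read total and 0.17 in limma on RPM. With the implied read total, ozone on fish oil gave 0.0079 for miR-25-3p and 0.021 for miR-92b-3p, and ozone on the normal diet gave 0.080 for miR-363-3p. The cause of these changes was not tested.

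Leaving out 1 library at a time, the sum with fish oil in ozone ranged from −0.89 to −0.68, and the log2 ratio of miR-92a-3p to miR-25-3p with fish oil in air from −0.88 to −0.68, where the smaller groups cannot pass. Ranges that crossed 0, none of them past the threshold, were −0.515 to 0.105 points for the family share with fish oil in air, −0.076 to 0.134 for miR-25-3p with fish oil in air, −0.10 to 0.033 for miR-25-3p, −0.071 to 0.19 for miR-92b-3p and −0.12 to 0.023 for the sum with ozone averaged over diets, −0.026 to 0.395 for miR-92a-3p with ozone on the normal diet, and −0.433 to 0.0014 for miR-92b-3p with ozone on fish oil. The ratio of miR-92a-3p to miR-25-3p with ozone on the normal diet ranged from −0.104 to 0.141 and that of miR-92b-3p to miR-92a-3p with fish oil in air from −0.108 to 0.217. In the fish oil average 27 miRNAs were higher and 23 lower with TMM factors, 29 and 13 with the plain miRNA total, and 1 and 70 with the implied read total. With fish oil in air 1 was higher and 7 lower, against 7 and 8 in DESeq2, 11 and 3 with the plain miRNA total, 9 and 6 without the 5 most abundant miRNAs in the library size, and 1 and 37 with the implied read total. In ozone 17 and 14 became 0 and 46 with the implied read total, and 4 and 8 without fish oil ozone 3. Fits of only the compared groups gave no value for averages and the interaction, which need all groups, nor for miR-363-3p with ozone on fish oil, which was under the filter there. Depth limits miR-363-3p most, with 0 to 45 counts per library. No paired analysis was possible because animal numbers are not shared between groups.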
